A study of Mus musculus with 6 samples.

Results

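Regulator of G protein signalling (Rgs) genes were followed across B cell states and between *Smc3* genotypes in single cell RNA-seq of mouse germinal center (GC) B-cells. The set held 8 genes of the 31053 in the deposited matrices, namely *Rgs1*, *Rgs2*, *Rgs13*, *Rgs16*, *Rgs18*, *Rgs10*, *Rgs14* and *Rgs19*, each found by its symbol and each present as 1 row. They were selected on measured values of these same data, out of 21 genes with such a symbol, and no cut-off was recorded. Their levels across cell states are therefore given as a description with no test, and the genotype tests are not independent of that choice. All 8 had unique molecular identifiers (UMIs, 1 for each captured transcript) in the kept cells, from 48 for *Rgs16* to 63944 for *Rgs13*.

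The libraries came from splenic cells sorted 8 days after mice were immunized with sheep red blood cells, and all mice carried Cgamma1-Cre. In this allele the Cre recombinase is knocked into the *Ighg1* locus and acts in B-cells that enter the GC reaction. The control group (genotype label Cgamma1-Cre WT Control, called WT control) had 3 libraries, and the group with 1 floxed *Smc3* allele deleted at exon 4 (label Cgamma1-Cre Smc3 +/-, called Smc3 +/-) had 3. *Smc3* encodes an ATPase subunit of cohesin. The study's methods count 6 wild type and 3 heterozygous mice, and the libraries given here number 3 and 3. Ages and the gate of the sort were not given in the sources used here, the label of every library was GC B cells, and B-cells that had not switched on the Cre, T cells and myeloid cells of these mice need not have lost the allele.

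Rgs proteins end the signal of G protein-coupled receptors. A receptor that binds its ligand loads GTP onto a G alpha subunit, and an Rgs protein speeds the hydrolysis of that GTP, so that the subunit returns to its resting state. GC B-cells find their way between the dark zone, where centroblasts (CB) divide, and the light zone, where centrocytes (CC) are selected, through such receptors, among them *Cxcr4*, *Cxcr5* and *S1pr2*. By sequence the members fall into the R4 subfamily (*Rgs1*, *Rgs2*, *Rgs13*, *Rgs16*, *Rgs18*), the R12 subfamily (*Rgs10*, *Rgs14*) and the RZ subfamily (*Rgs19*).

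On the mm10 assembly, 4 of the 8 genes lay beside each other on chromosome 1 and all on the minus strand. *Rgs2* (chr1:143999338-144004161), *Rgs13* (chr1:144138654-144177372), *Rgs1* (chr1:144242296-144249242) and *Rgs18* (chr1:144752683-144775435) spanned 776 kb, in which the only other protein-coding gene was *Rgs21*, with 0 UMIs in the kept cells. *Rgs13* was 134.5 kb from *Rgs2* and 64.9 kb from *Rgs1*. *Rgs16* (chr1:153740349-153745468, plus strand) lay 8.96 Mb further on, with 34 protein-coding genes between. *Rgs10* (chr7:128373621-128418758, minus strand), *Rgs14* (chr13:55369732-55384687, plus strand) and *Rgs19* (chr2:181688419-181693977, minus strand) were on other chromosomes.

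The promoters of the neighbours *Rgs2* and *Rgs13* are printed because these genes lie side by side, yet their transcripts were distributed differently over the cell states described further on. Both are the 250 bases before the start site in RefSeq (GRCm38.p6), read on the minus strand, at chr1:144004150-144004399 for *Rgs2* and chr1:144177373-144177622 for *Rgs13*. Capitals mark TGACG on either strand (CGTCA on the printed one) and CANNTG, which reads alike on both strands, with N for any base. These matches did not overlap each other.
Rgs2: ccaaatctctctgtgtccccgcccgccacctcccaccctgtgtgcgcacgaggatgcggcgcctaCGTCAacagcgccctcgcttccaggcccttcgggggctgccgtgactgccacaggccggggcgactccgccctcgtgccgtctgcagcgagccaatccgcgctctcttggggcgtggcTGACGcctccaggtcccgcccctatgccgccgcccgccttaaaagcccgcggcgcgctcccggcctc
Rgs13: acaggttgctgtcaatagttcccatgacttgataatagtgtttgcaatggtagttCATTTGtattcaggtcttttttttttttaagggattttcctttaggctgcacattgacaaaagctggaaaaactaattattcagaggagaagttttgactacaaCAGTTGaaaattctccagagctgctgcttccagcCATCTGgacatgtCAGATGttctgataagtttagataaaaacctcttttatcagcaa

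The *Rgs2* window held 30 CpG dinucleotides at 72.4% GC, and the *Rgs13* window held 0 CpG dinucleotides at 36% GC. Over the 32536 promoter windows of the same length, the medians were 6 CpG dinucleotides and 52.4% GC. The *Rgs2* window had 2 TGACG matches and no CANNTG match, and the *Rgs13* window had 4 CANNTG matches and no TGACG match. Of all windows, 17.85% held TGACG, 66.19% held CANNTG and 12.31% held TATAAA, which neither window held. Entries for *Rgs10*, *Rgs16* and *Rgs19* were also matched, which gave 5 of the 8 members.

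The 6 libraries held 22939 barcodes and 5223325 to 35354257 UMIs each, and 20809 cells were kept, 1011 to 4963 per library. Clusters were named from marker transcripts, so each name ends in -like. They gave 5006 CB-like cells (led by the G2/M genes *Cdc20*, *Ccnb1* and *Top2a*), 3893 S-phase GC B-like, 1978 recycling-like (led by *Hspd1* and *C1qbp*), 1419 CC-like (led by *Cd83* and *Nfkbia*), 1857 naive or memory B-like, 452 plasmablast (PB)-like, 1503 plasma cell (PC)-like and 542 T cell-like cells. A further 3428 cells were led by haemoglobin transcripts and received no name. The smaller classes were 548 monocyte or macrophage-like, 64 dendritic cell-like, 62 *C1qa*-led and 57 neutrophil-like cells. Values are counts-per-million (CPM), a gene's UMIs scaled to all UMIs summed over the cells of a class in a library, given where the library had at least 20 such cells. The targeted gene *Smc3* was at 146, 162 and 147 CPM in CB-like cells of the controls and at 149, 105 and 182 CPM in those of Smc3 +/- replicates 1 to 3. The groups overlapped. These libraries count transcript 3′ ends, so this is no check of a deletion at exon 4. For lymphoma cells of mice with the heterozygous deletion, the paper reported reduced *Smc3* expression by RNA-seq. Those samples are not among these libraries.

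Library Smc3 +/- replicate 2 stood apart from the others. Immunoglobulin transcripts took 59.4% of its UMIs against 2.61% to 4.40% elsewhere, and it held 1381 of the PC-like, 498 of the monocyte or macrophage-like and 56 of the neutrophil-like cells, but only 132 CB-like and 109 CC-like cells. Its CB-like cells had 120 CPM of *Mef2b*, 43.3 of *Gcsam* and 30.7 of *S1pr2*, while the other 5 libraries averaged 560 ± 128, 273 ± 24.4 and 128 ± 17.5 (SD, n = 5). *Cd79a*, a part of the B cell receptor, was at 2056 CPM in its CB-like cells against 1612 ± 132 in the others. Thus the B cell transcript was as abundant there and the GC transcripts were not, and values without it are given beside the results it moved most. WT control replicates 1 and 2 and Smc3 +/- replicate 2 were male by *Xist* and Y-linked transcripts, and the others female. No label ties the libraries to separate mice, so the p-values measure the spread between these libraries.

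**Figure D1:**
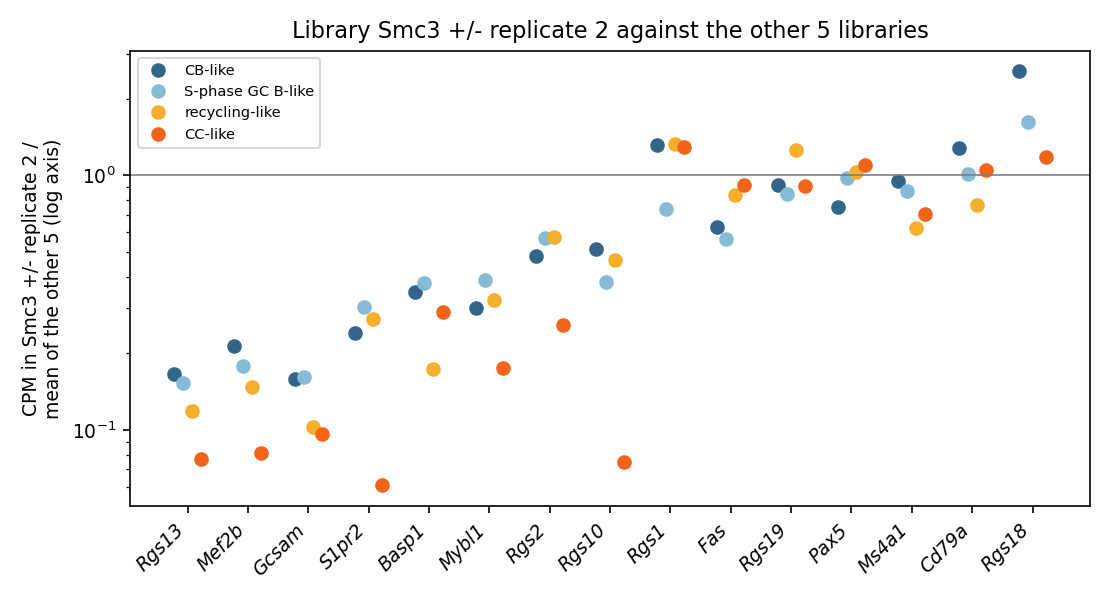
Ratio of the level in library Smc3 +/- replicate 2 to the mean of the other 5 libraries (log axis) for Rgs genes and B cell markers, with 1 point for each GC class where the mean of the other 5 was at least 10 CPM. *Rgs13* sits with *Mef2b* and *Gcsam* far below the line at 1, while *Cd79a*, *Pax5* and *Rgs19* lie near it.

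*Rgs13*, an R4 member that restrains chemokine receptor signalling in GC B-cells, marked the GC classes. In CC-like cells it was at 1174, 859.5 and 779 CPM in WT control replicates 1 to 3 and at 1217, 77.2 and 1000 CPM in Smc3 +/- replicates 1 to 3. In CB-like cells the values were 775, 578 and 479 CPM in the controls and 933, 114 and 686 CPM in the Smc3 +/- libraries. Every library but Smc3 +/- replicate 2 was thus at 479 CPM or more in both states. The S-phase class had 646 ± 324 CPM (SD, n = 6), and the recycling-like class had 431 ± 218 CPM. Without Smc3 +/- replicate 2 they had 752 ± 216 and 505 ± 134 CPM (n = 5). Naive or memory B-like cells had 96.2 ± 57.6 CPM and PB-like cells 57.8 ± 37.9 CPM, and none of the CB-like, CC-like, S-phase and recycling-like classes overlapped either of them once Smc3 +/- replicate 2 was left out. The unnamed haemoglobin-led cells, shallow at a median of 3078 UMIs, had 677 ± 356 CPM, within the range of the GC classes. The PC-like class had 18 ± 12.6 CPM in the 4 libraries with enough cells, and the 1381 PC-like cells of Smc3 +/- replicate 2 had 0.046 CPM, from 1 UMI. Over the UMIs that were not immunoglobulin, PC-like cells had 52.6 ± 40.1 CPM and PB-like cells 67.5 ± 44.5 CPM.

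The level of *Rgs13* was higher in CC-like than in CB-like cells in 5 of 6 libraries, by 0.38 to 0.69 on the log2(CPM + 10) scale. In the remaining library, Smc3 +/- replicate 2, it was lower by 0.51, so the mean was 0.38 ± 0.45 (SD, n = 6) with that library and 0.55 without it. When the libraries were clustered without integration, 5 of 6 were again higher in CC-like cells, but that library moved to -3.75 and turned the mean to -0.28. Among the CB-like clusters, *Rgs13* averaged 516 ± 256 CPM in the cluster led by *Mxd3* and histone genes, 739 ± 329 CPM in the cluster led by *Cdc20* and *Ccnb2* and 629 ± 311 CPM in the cluster led by *Cenpf* and *Ube2c*, with SDs wider than the differences.

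Counted by cell, after thinning every cell to 2000 UMIs, an *Rgs13* UMI was present in 64.3% ± 26.8 of CC-like, 56.9% ± 19.6 of CB-like and 13.4% ± 8.91 of naive or memory B-like cells (SD, n = 6). T cell-like cells, which are not known to use the gene, had 4.14% ± 5.47 (n = 4). Before thinning the shares were 75.2%, 73.8%, 12.1% and 2.83%, at median depths of 5368, 5660, 2462 and 1640 UMIs. Thinning left out 32 CC-like, 178 CB-like, 697 naive or memory B-like and 364 T cell-like cells. The share in naive or memory B-like cells was above that in T cell-like cells by both counts, although the libraries overlapped.

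**Figure D2:**
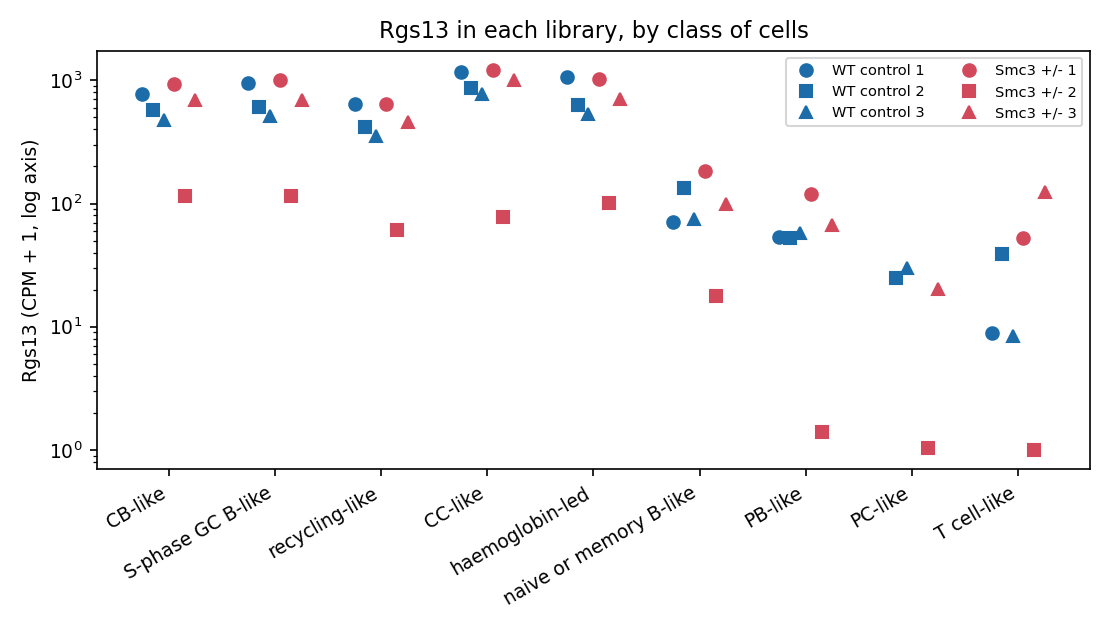
*Rgs13* in each library (CPM + 1, log axis) for 9 classes of cells, with blue for WT control and red for Smc3 +/- and 1 symbol for each replicate number. The red square, Smc3 +/- replicate 2, is the lowest point of every class, while the other 5 libraries lie between 354 and 1217 CPM in the CB-like, S-phase, recycling-like and CC-like classes.

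*Rgs1*, an R4 member that restrains B-cell movement toward chemokines, was highest in T cell-like cells among the 8 classes with all 6 libraries. There it was at 94.4, 69.5 and 103 CPM in the controls and 110, 140 and 51.7 CPM in the Smc3 +/- libraries, and they ranked first in 5 of 6 libraries. The 22 *C1qa*-led cells of Smc3 +/- replicate 2 had 176 CPM, from 8 UMIs (95% Poisson interval 75.9 to 346). The GC classes reached 39.6 ± 14.4 CPM in S-phase, 28.9 ± 10.4 in CB-like and 27.8 ± 6.48 in CC-like cells, which overlapped one another. Recycling-like cells had 11.2 ± 2.74 CPM, below every library of the S-phase class.

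*Rgs2*, which acts mainly on the Gq class of G alpha subunits, was present in all GC classes and lower in the plasma lineage. Among the 8 classes with all 6 libraries the unnamed haemoglobin-led cells had the highest mean, at 187 ± 88.7 CPM, and ranked first in 5 of 6 libraries. CB-like cells had 135, 186 and 189 CPM in the controls and 131, 78.1 and 169 CPM in the Smc3 +/- libraries. CC-like cells had 128, 178 and 169 CPM against 101, 35.9 and 120 CPM, and all 6 libraries were lower in CC-like than in CB-like cells, with a mean difference of -0.34 ± 0.34 (SD, n = 6) on the log2(CPM + 10) scale. The difference was -0.94 in Smc3 +/- replicate 2 and -0.22 on average without it. At a cluster resolution of 1 in place of 0.5 the mean was -0.18 and 3 of 6 libraries were higher in CC-like cells. In PB-like cells the level was 9.58 ± 9.06 CPM and in PC-like cells 9.58 ± 11.2 CPM, and none of the CB-like, S-phase, CC-like and recycling-like classes overlapped either. Over the UMIs that were not immunoglobulin, PC-like cells had 26.6 ± 27.4 CPM, up to 64.1, which overlapped the recycling-like and CC-like classes, and PB-like cells had 11.2 ± 10.3 CPM and did not. Outside the B lineage, the 498 monocyte or macrophage-like cells of Smc3 +/- replicate 2 had 410 CPM of *Rgs2* (95% Poisson interval 377 to 445, counting error only), which was above every B cell class in that library.

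*Rgs18*, known from platelets and myeloid cells, was low in all B cell classes. Among the classes with all 6 libraries it had its highest means in the unnamed haemoglobin-led cells, which had 27.0 ± 12.6 CPM and ranked first in 4 of 6 libraries, and in naive or memory B-like cells, with 26.2 ± 10.9 CPM. Naive or memory B-like cells had 36.8, 14.9 and 15.3 CPM in the controls and 39.9, 29.8 and 20.8 CPM in the Smc3 +/- libraries. CB-like cells had 17.9 ± 11.4 CPM, CC-like cells 12.6 ± 8.02 CPM and recycling-like cells 7.02 ± 7.04 CPM, all overlapping. The recycling-like mean was 4.33 ± 2.77 CPM (n = 5) without Smc3 +/- replicate 2. The plasma lineage held 2 UMIs in all, 1 in PB-like cells of WT control replicate 3 and 1 among the 21738155 UMIs of the PC-like cells of Smc3 +/- replicate 2. In that same library, neutrophil-like cells had 150 CPM (95% Poisson interval 108 to 202) and monocyte or macrophage-like cells 91.5 CPM (76.2 to 109).

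*Rgs16*, an R4 member induced in activated T cells, had 21 of its 48 UMIs in T cell-like cells. Its level there was 7.87, 31.6 and 14.7 CPM in the controls and 22.1, 18 and 9.40 CPM in the Smc3 +/- libraries. These rest on 1 to 8 UMIs a library, and the lowest, from 1 UMI, had a 95% Poisson interval of 0.20 to 43.8 CPM. PB-like cells came next, with 13 UMIs and 2.39 ± 2.34 CPM, and a difference between these classes was not shown in every library at this depth. The 4 GC classes together held 10 UMIs in 12296 cells, so that no difference between them was detectable at this depth.

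The R12 members differed in where they were found. *Rgs10*, a small member made of little more than the Rgs domain, was at 370, 663 and 485 CPM in T cell-like cells of the controls and 706, 356 and 451 CPM in those of the Smc3 +/- libraries, above every library of every B cell class. In Smc3 +/- replicate 2, the 57 dendritic cell-like cells had 476.8 CPM (95% Poisson interval 404 to 558), above its T cell-like cells, and monocyte or macrophage-like cells had 181.5 CPM. In S-phase GC B-like, PB-like and CB-like cells it averaged 97.6 ± 42.2, 93.1 ± 37.5 and 90.2 ± 35.5 CPM, in PC-like cells 47.6 ± 12.6 CPM (n = 4) and in naive or memory B-like cells 40.1 ± 13.4 CPM. Over the UMIs that were not immunoglobulin the order changed, with PC-like cells at 153.5 ± 27.0 CPM, PB-like at 114 ± 35.9, S-phase at 99.5 ± 42.7 and CB-like at 92.6 ± 35.4, while T cell-like cells stayed above every one of their libraries. All 6 libraries had less *Rgs10* in CC-like than in CB-like cells, with a mean difference of -0.70 ± 0.67 on the log2(CPM + 10) scale (-1.97 in Smc3 +/- replicate 2 and -0.44 on average without it), and this held in all 6 with doublets kept, at a resolution of 1 and without integration. After thinning to 2000 UMIs a *Rgs10* UMI was found in 53.2% ± 6.09 of T cell-like cells (n = 4 libraries) and 15.6% ± 5.47 of CB-like cells (n = 6), and before thinning in 50.2% and 35.7%.

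*Rgs14*, which carries G protein and Ras binding domains beside its Rgs domain, had its highest mean outside the GC. It was at 33.4, 28.1 and 42.7 CPM in naive or memory B-like cells of the controls and 50.3, 28.6 and 37.0 CPM in those of the Smc3 +/- libraries. CB-like cells had 17.2 ± 1.46 CPM and CC-like cells 12.3 ± 2.80 CPM, and recycling-like cells, at 7.54 ± 0.703 CPM, were below every library of both. Thus every naive or memory B-like library was above every CB-like library.

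*Rgs19*, an RZ member that acts on Gi class subunits, varied little between libraries in the named mature B-cell and GC classes. Among the 8 classes with all 6 libraries its highest mean was in the unnamed haemoglobin-led cells, which had 133 ± 54.6 CPM (27.8 to 189 CPM) and ranked first in 5 of 6 libraries. Naive or memory B-like cells had 120 ± 15.2 CPM, CB-like cells 108 ± 7.64, CC-like cells 87.8 ± 6.59 and recycling-like cells 80.6 ± 8.83 (SD, n = 6). In PB-like cells it was at 36.4 ± 14.7 CPM, below every library of the recycling-like class, and in PC-like cells at 8.74 ± 2.94 CPM (n = 4), below every PB-like library. Part of the PC-like UMIs were immunoglobulin, and over the remaining UMIs the PC-like mean was 27.8 ± 5.17 CPM against 44.8 ± 14.5 CPM in PB-like cells, which then overlapped. In all 6 libraries *Rgs19* was lower in CC-like than in CB-like cells, with a mean difference of -0.27 ± 0.071 on the log2(CPM + 10) scale, and with doublets kept, another resolution or no integration all 6 were lower too.

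**Figure D3:**
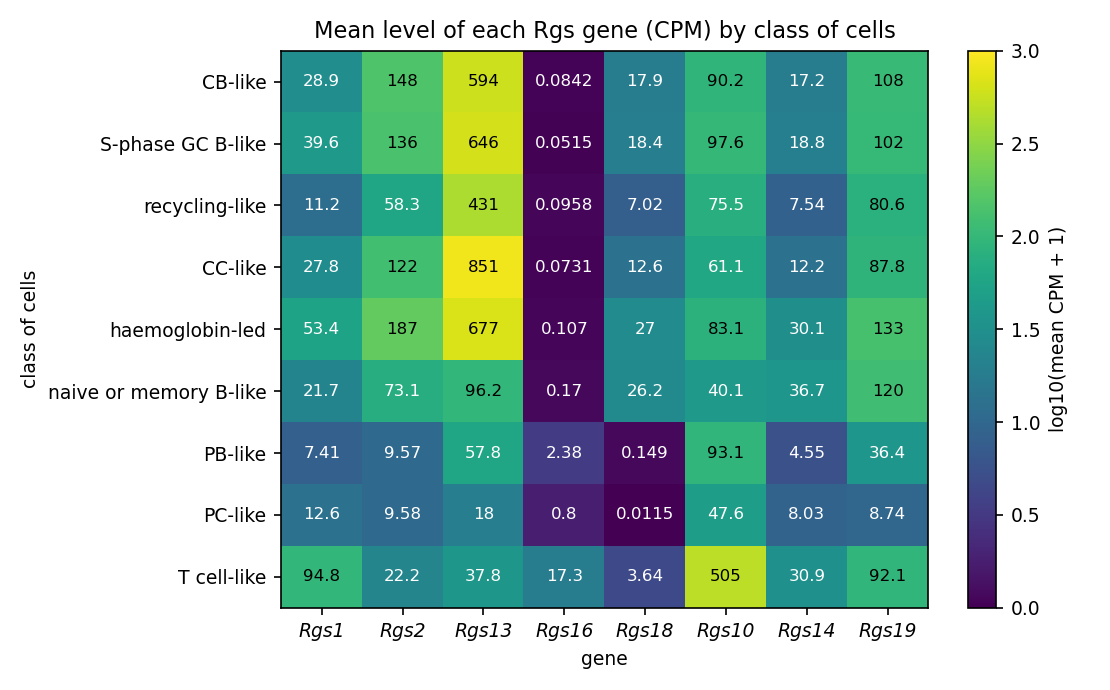
Mean level of each Rgs gene over the libraries (CPM, printed in the cells, n = 6 except n = 4 for PC-like) by class of cells, with colour for log10(mean CPM + 1). *Rgs13* is brightest in the GC rows, *Rgs10* in the T cell-like row, and PB-like and PC-like rows are dark for *Rgs2* and *Rgs18*.

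The pattern of 7 members (those with at least 200 UMIs) was compared with that of the other genes over the 56 class sums of at least 20 cells, by Pearson's r of log2(CPM + 10) among 6933 genes. These sums share libraries, depth and cell source, so r is a description. *Rgs13* ran closest to *Mef2b*, a transcription factor of GC B-cells (r = 0.948), and *Stau2*, an RNA-binding protein, was also among its 3 closest genes (0.929). *Rgs19* ran closest to *Gnai2* (0.927), which encodes a Gi alpha subunit. The first genes for the others were *March1* for *Rgs2* (0.869), *Ypel3* for *Rgs14* (0.871), *Ncf4* for *Rgs18* (0.813), *Tbc1d4* for *Rgs10* (0.801) and *Stk17b* for *Rgs1* (0.794). Without Smc3 +/- replicate 2 (43 sums), *Mef2b* still reached 0.904 with *Rgs13*, but 0 of the 3 closest genes were shared for *Rgs13*, *Rgs2*, *Rgs1* and *Rgs18*, 1 for *Rgs10* and *Rgs14*, and 2 for *Rgs19*.

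The genotype comparison asked whether Smc3 +/- cells of a given state differed from WT control cells. UMIs were summed per library and class, scaled by the trimmed mean of M values (TMM) and tested across all genes with edgeR's quasi-likelihood test and Benjamini-Hochberg adjustment. No Rgs gene passed the adjusted threshold of 0.05 in any of 6 classes (CB-like, CC-like, naive or memory B-like, plasma-lineage, S-phase GC B-like and recycling-like), and all their adjusted p-values were 0.924 or above. Of the 9638 genes in CB-like cells, 0% passed by edgeR and 0 by DESeq2, while 219 had an edgeR p below 0.05 before adjustment. Likewise edgeR called 0% of 7774 genes in CC-like cells (142 unadjusted), 0% of 7023 in naive or memory B-like cells (139), 0% of 5924 in plasma-lineage cells (221), 0% of 9350 in S-phase cells (188) and 0% of 9561 in recycling-like cells (158). DESeq2 called 1 gene in S-phase cells, not an Rgs member, and 0 in the other classes. Below, the library values are TMM-scaled CPM, and a fold change is the fitted log2 value of Smc3 +/- minus WT control.

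*Rgs18* had the largest member estimate in each of the 4 GC classes, and its estimates were higher in Smc3 +/- in all 5 classes where it was tested. In CB-like cells it was at 7.88, 10.6 and 8.50 in the controls and 24.9, 42.8 and 16.4 in the Smc3 +/- libraries, which did not overlap. The log2 fold change was 1.37 (SE 0.32), with an unadjusted p of 0.0023 and an edgeR adjusted p of 0.9999. This was the only tested member of 7 whose libraries lay wholly higher in Smc3 +/-, against 4.39% of all genes tested in CB-like cells, and 0 lay wholly lower, against 5.22%. Without Smc3 +/- replicate 2 the CB-like estimate was 1.10 (SE 0.22, adjusted p = 0.742 by edgeR).

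The other GC classes gave *Rgs18* estimates of the same sign. CC-like libraries were at 2.65, 6.25 and 11.5 against 23.7, 17.3 and 14.98, without overlap (4.04% of genes lay wholly higher and 4.14% wholly lower), with a log2 fold change of 1.16 (SE 0.39). Recycling-like libraries were at 3.40, 2.10 and 2.92 against 8.42, 22.4 and 4.13, also without overlap (4% higher, 4.43% lower), at 1.69 (SE 0.58). S-phase libraries overlapped, at 20.4, 8.22 and 11.1 against 23.5, 30.6 and 17.0, at 0.95 (SE 0.31). Naive or memory B-like libraries overlapped too, at 33.1, 15.7 and 16.2 against 36.2, 34.5 and 21.7, at 0.66 (SE 0.35). These classes come from the same 6 libraries and are not separate evidence.

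Markers of myeloid cells, where *Rgs18* was highest, moved with part of this result. The 15 neutrophil lineage markers summed to 65.6 CPM in CB-like cells of Smc3 +/- replicate 2 against 0 to 2.48 CPM in the other 5 libraries, and to 9901 CPM in its recycling-like cells against 0 to 2.17 CPM. Of the 15, 14 were detected. The 14 monocyte or macrophage markers summed to 532 CPM in its CB-like cells, and to 271 to 327 CPM in the controls and 338 and 341 CPM in Smc3 +/- replicates 1 and 3. Without Smc3 +/- replicate 2, the estimates were 1.13 in CC-like, 1.18 in recycling-like and 0.87 in S-phase cells. The part of these cells in the *Rgs18* values of the other libraries was not tested.

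*Rgs1* estimates were lower in Smc3 +/- in all 5 classes tested. In S-phase cells the libraries were at 56.5, 46.0 and 49.3 in the controls and 22.1, 34.7 and 28.8 in Smc3 +/-, without overlap, and the log2 fold change was -0.87 (SE 0.18), with an unadjusted p of 6.7e-04 and an edgeR adjusted p of 0.9998. Without Smc3 +/- replicate 2 it was -0.92 (edgeR adjusted p = 0.577). Of the 7 members tested in S-phase cells, 3 were wholly lower, against 4.49% of all genes, and 0 were wholly higher, against 4.16%. Beside *Rgs1* these were *Rgs14* (-0.37, SE 0.19) and *Rgs19* (-0.12, SE 0.13). On CPM without TMM scaling the groups overlapped for *Rgs14* and *Rgs19* in this class, but not for *Rgs1*. In CB-like cells *Rgs1* was at 39.4, 32.2 and 28.8 against 15.4, 42.8 and 17.3. There the groups overlapped through Smc3 +/- replicate 2 alone, and the estimate went from -0.68 (SE 0.32) to -0.96 without it (adjusted p = 0.435, edgeR).

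*Rgs2* estimates were lower in Smc3 +/- in all 6 classes, although in plasma-lineage cells the value went from -0.19 (SE 0.79) to 0.08 with DESeq2 and with a replicate block. In CC-like cells the libraries were at 119, 181 and 171 against 93.0, 43.2 and 120, which overlapped narrowly, with a log2 fold change of -0.83 (SE 0.29) and -0.59 without Smc3 +/- replicate 2. In naive or memory B-like cells they were at 72.1, 103 and 86.6 against 63.0, 53.1 and 67.0, without overlap, at -0.55 (SE 0.20). That was 1 of 7 members wholly lower in this class, against 3.6% of all genes, and 0 were wholly higher, against 3.69%. In CB-like cells the estimate was -0.36 (SE 0.24) and the groups overlapped, with -0.21 when Smc3 +/- replicate 2 was left out and -0.63 when Smc3 +/- replicate 3 was. Under the alternatives that kept all libraries it ranged from -0.55 to -0.13.

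**Figure D4:**
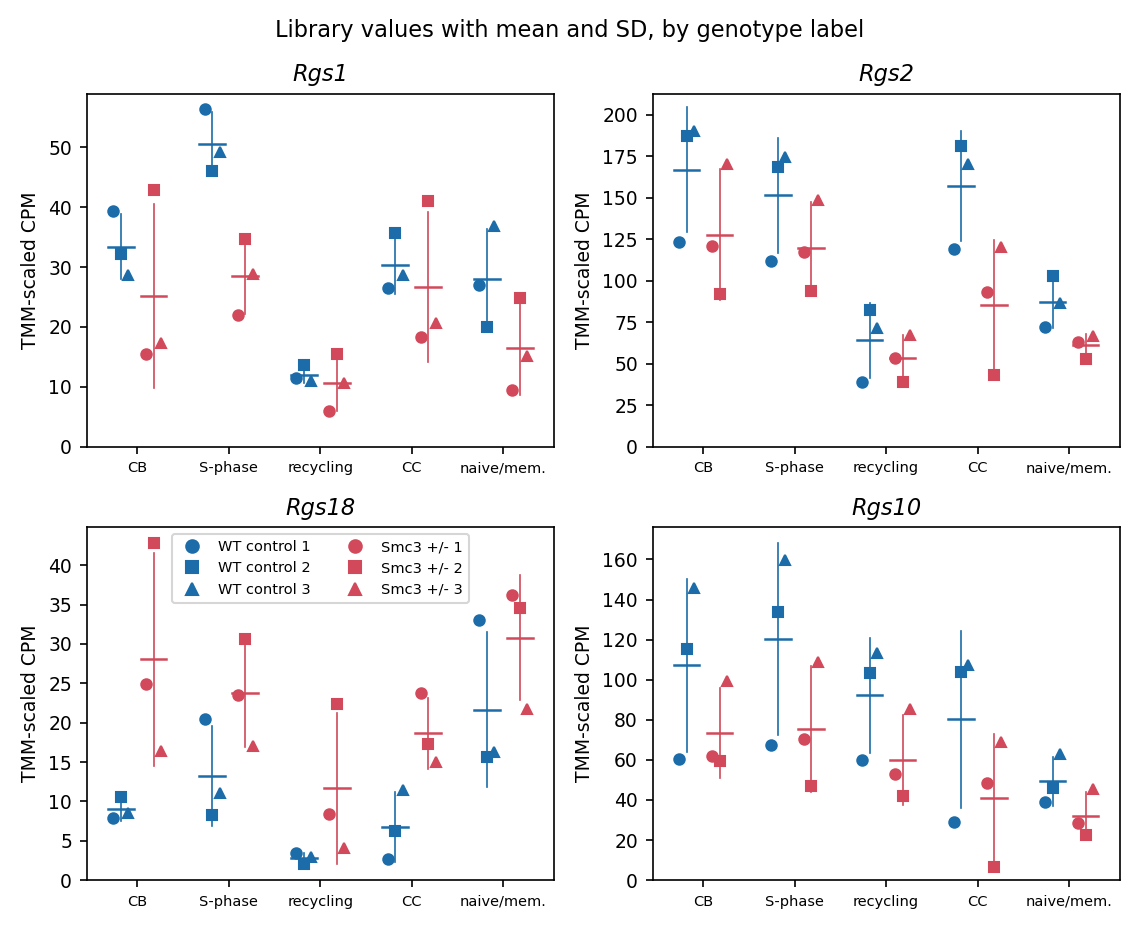
TMM-scaled CPM of *Rgs1*, *Rgs2*, *Rgs18* and *Rgs10* in each library by class, blue for WT control and red for Smc3 +/-, with the mean (horizontal bar) and SD (vertical bar) of 3 libraries. *Rgs18* shows red above blue without overlap in CB-like, recycling-like and CC-like cells, and *Rgs1* shows red below blue without overlap in S-phase cells.

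*Rgs13* gave no stable direction. In CB-like cells the libraries were at 711, 582 and 483 in the controls and 858, 135 and 690 in Smc3 +/-, with a log2 fold change of -0.06 (SE 0.52, 95% interval -1.24 to 1.12). The estimate was 0.39 in CB-like cells and 0.22 in CC-like cells once Smc3 +/- replicate 2 was left out, against -0.30 (SE 0.62) in CC-like cells with it. In plasma-lineage cells it was -0.27 (95% interval -2.92 to 2.37). There 4 members could be tested, 0 of them wholly higher (5.22% of all genes) and 0 wholly lower (5.5%). Under the alternatives that kept all libraries, the *Rgs13* estimate ranged widely. It went from -0.70 to 0.13 in CB-like, -1.32 to -0.21 in CC-like and -2.19 to -0.18 in plasma-lineage cells.

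*Rgs10* estimates were lower in Smc3 +/- in 5 of 6 classes, at -0.53 (SE 0.31) in CB-like, -0.89 (SE 0.49) in CC-like and -0.66 (SE 0.31) in naive or memory B-like cells, and every class overlapped. Without Smc3 +/- replicate 2 they were -0.45, -0.61 and -0.42, and without Smc3 +/- replicate 3 they were -0.84, -1.44 and -1.01. Leaving out WT control replicate 3 gave -0.26 in CB-like and -0.43 in naive or memory B-like cells. The low libraries were in both groups. In CB-like cells, WT control replicate 1 and Smc3 +/- replicates 1 and 2 had 60.7, 61.9 and 59.3, whereas WT control replicates 2 and 3 and Smc3 +/- replicate 3 had 115, 146 and 99.2. WT control replicate 1 and Smc3 +/- replicate 1 were also the libraries with the fewest UMIs and had the 2 highest *Rgs13* values of this class. *Rgs14* and *Rgs19* had estimates of 0.14 (SE 0.18) and 0.07 (SE 0.14) in CB-like cells.

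**Figure D5:**
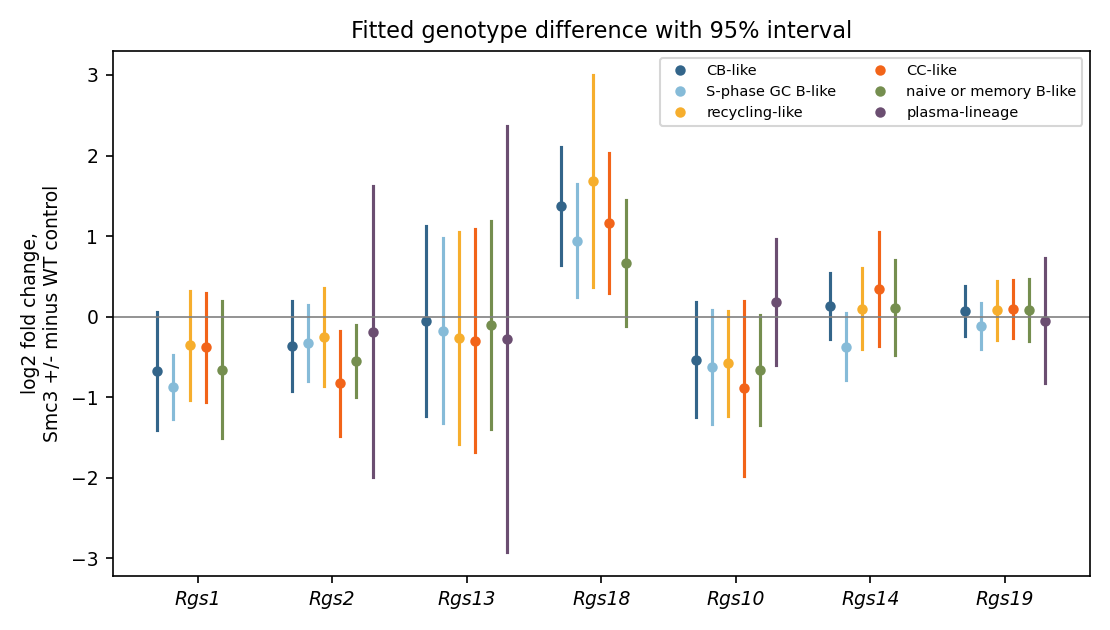
Fitted log2 fold change (Smc3 +/- minus WT control) of 7 Rgs genes with 95% interval, 1 colour for each of 6 classes (*Rgs16* was too sparse to test). *Rgs18* intervals lie above 0 in the 4 GC classes, and *Rgs13* intervals span 0 with the greatest width. *Rgs19* intervals are narrow around 0 except in plasma-lineage cells (-0.83 to 0.72).

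A joint fit with a term for each library asked whether the genotype difference itself differed between CC-like and CB-like cells. By edgeR 0% of 8890 genes passed, and 320 had a p below 0.05 before adjustment. *Rgs2* was the member with the lowest p, with a difference of -0.41 (SE 0.14, unadjusted p = 0.0068, edgeR adjusted p = 0.9999). *Rgs13* had -0.26 (SE 0.13) and *Rgs18* -0.12 (SE 0.38).

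The rest of the pathway was read from lists of other Rgs genes, G alpha subunits, G beta and gamma subunits, positioning receptors, receptor kinases and arrestins, and effectors. In none of the 6 classes did a listed gene pass in either direction. In CB-like cells all 9 tested G alpha genes of 13 listed had estimates below 0, with a median of -0.15 against a median of -0.0036 over all genes. The 12 tested positioning receptors of 16 had 8 estimates above 0 and a median of 0.25. These splits did not recur in every class. The G alpha genes had 4 of 6 estimates below 0 in CC-like, 5 of 6 in naive or memory B-like, 7 of 9 in S-phase, 4 of 9 in recycling-like and 2 of 6 in plasma-lineage cells, and the positioning receptors had 7 of 11, 7 of 14, 9 of 12, 8 of 12 and 2 of 7 above 0 in the same order. In CB-like cells the lists had 3 other Rgs genes, 8 G beta and gamma genes, 3 receptor kinases and arrestins and 11 effectors tested, with medians from -0.18 to 0.02.

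In each class the 2 listed genes with the lowest unadjusted p are named here, and none passed the adjusted threshold. In CB-like cells they were *Rgs9*, an R7 subfamily member (8, 60 and 71 UMIs against 14, 1 and 33, log2 fold change -1.05, SE 0.29), and *Gnb4*, a G beta subunit (0.52, SE 0.19). In CC-like cells they were *Ccr6* (3.25, SE 1.26), with 84 of its UMIs in Smc3 +/- replicate 2 and an estimate of 0.64 without it, and *Gna13*, the subunit downstream of *S1pr2* (-0.55, SE 0.26). *Gna13* was also among them in S-phase cells (-0.52, SE 0.25), beside the receptor *Gpr18* (0.44, SE 0.14), and in recycling-like cells (-0.45, SE 0.20), beside *Pik3cd*, a phosphoinositide 3-kinase subunit (-0.44, SE 0.22). In Smc3 +/- replicate 2, where *Mef2b* and *S1pr2* were low, *Gna13* had 21, 34 and 51 UMIs in the CC-like, S-phase and recycling-like sums, and without that library the 3 estimates were -0.32, -0.29 and -0.27, and that of *Pik3cd* -0.29. In naive or memory B-like cells they were *Gna15* (-1.30, SE 0.41) and *S1pr2* (-1.57, SE 0.61, and -0.92 without Smc3 +/- replicate 2). In plasma-lineage cells they were *Prkaca* (0.83, SE 0.36) and *Ccr10* (2.22, SE 1.03), the latter with 4734 UMIs in Smc3 +/- replicate 2 and an estimate of -0.34 without it.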

How the data were processed

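The authors processed 10x Genomics 3′ v2 libraries with Cell Ranger (3.0.2 in the matrix headers) on mm10 and deposited a matrix of UMI counts per gene and barcode for each of 6 libraries. The submitters' notes also name Seurat 4.0.0 and R 4.0.2. The 6 matrices held 22939 barcodes and 156055938 UMIs, and 242 barcodes occurred in more than 1 library.

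From these deposited counts, barcodes with at least 500 genes and at most 10% mitochondrial UMIs were kept (21568), and 759 were removed as likely doublets, taken as the highest Scrublet scores of each library (scanpy 1.11.5) up to a rate set at 0.8% for every 1000 cells. Libraries were integrated by reciprocal PCA anchors and clustered with Seurat 5.3.0 (2000 variable genes without the Rgs and pathway genes, 30 components, 20 neighbours, resolution 0.5). Clusters were named from lists of markers by a scoring rule written after the clusters had been seen, and 2 of 15 clusters received no name. Members and gene lists were chosen with earlier results of these data known. All 8 members are described, and in each class the 2 pathway genes with the lowest unadjusted p are named. Of the genes closest to *Rgs13*, 1 is not reported here.

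Levels are CPM of a class sum of at least 20 cells, with exact Poisson intervals that cover counting error only. Genotypes were compared by edgeR 4.0.16 (quasi-likelihood test, TMM scaling, filterByExpr, two-sided, Benjamini-Hochberg over all genes, threshold 0.05) in R 4.3.3, with libraries as replicates. The S-phase and recycling-like fits, and the levels, closest genes and named pathway genes without Smc3 +/- replicate 2, were chosen after seeing the data. Alternatives were DESeq2 1.42.0, RLE size factors, no low-count filter, no immunoglobulin genes, sex as a covariate, doublets kept, no integration, resolution 1, a replicate block and each library left out. Deviations of same-numbered libraries correlated at over 0.1 in all 3 pairs of CB-like (0.213, 0.104 and 0.134), naive or memory B-like and S-phase sums, but not of CC-like sums (0.156, 0.047 and 0.167), and no label says what a number marks. The same-numbered library was the closest of the other group in 6 of 6 cases for CB-like, naive or memory B-like, plasma-lineage and S-phase sums. For CC-like and recycling-like sums it was so in 5 of 6. The main fits had no term for that number. The edgeR fits of the 6 classes were tested on simulated data with known changes, and the joint fit was not.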

Additional observations from a re-analysis of the deposited data

How the results depend on the processing

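No Rgs gene passed the threshold in any of the 543 estimates under an alternative, the lowest adjusted p being 0.206 (*Rgs18* in CB-like cells, DESeq2), and within the classes direction held in 248 of 253 estimates with all libraries and 214 of 234 with 1 library left out. The joint fit is among the 543 estimates but not in the direction tallies, and its ranges with 1 library left out are given further on. With the replicate number as a block 0 genes were called in each of the 6 classes, *Rgs18* in CB-like cells was at 1.46, and *Rgs2* in plasma-lineage cells turned to 0.085. The other turns were *Rgs13* in CB-like cells without integration (0.13), *Rgs13* in naive or memory B-like cells (0.020) and *Rgs2* in plasma-lineage cells (0.078) with DESeq2, and *Rgs19* in plasma-lineage cells with doublets kept (0.10). The count of called genes went from 0 to 1 in CB-like cells without integration and in S-phase cells with DESeq2, and without a low-count filter to 14 in CC-like, 40 in naive or memory B-like and 2 in plasma-lineage cells and to 18 for the difference between CC-like and CB-like cells. The cause was not tested.

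With each library left out in turn, the counts ranged from 0 to 1 in CB-like, plasma-lineage and S-phase cells, reaching 1 without Smc3 +/- replicate 2, and from 0 to 7 for the difference between CC-like and CB-like cells, with 2 without Smc3 +/- replicate 2 and 7 without Smc3 +/- replicate 3. *Rgs13* estimates ranged from -0.48 to 0.39 in CB-like, -0.71 to 0.22 in CC-like, -0.75 to 0.40 in naive or memory B-like, -1.20 to 0.43 in plasma-lineage, -0.73 to 0.21 in recycling-like and -0.64 to 0.29 in S-phase cells, the highest each time without Smc3 +/- replicate 2. *Rgs19* ranged from -0.0061 to 0.14 in CB-like, -0.018 to 0.24 in naive or memory B-like, -0.37 to 0.17 in plasma-lineage and -0.068 to 0.18 in recycling-like cells. In plasma-lineage cells *Rgs10* ranged from -0.16 to 0.40 and *Rgs2* from -0.83 to 1.27, and in naive or memory B-like cells *Rgs14* from -0.026 to 0.38. The CC-like minus CB-like difference of the genotype effect ranged from -0.096 to 0.60 for *Rgs14*, -0.55 to 0.54 for *Rgs18* and -0.025 to 0.13 for *Rgs19*. This difference kept its sign for *Rgs1* (0.080 to 0.30), *Rgs2* (-0.50 to -0.36), *Rgs13* (-0.43 to -0.17) and *Rgs10* (-0.42 to -0.10). Of 232 descriptive values, 50 moved by over 1 SD, 43 of them shares of cells at another thinning and 7 under other clusterings. *Rgs16* fell under the low-count filter in every class, and *Rgs1*, *Rgs14* and *Rgs18* did so in plasma-lineage cells.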
